A study of Mus musculus with 8 samples.

Results

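The major urinary protein (Mup) genes of mouse were followed in whole liver after long feeding of a diet that induces non-alcoholic steatohepatitis (NASH), a fatty liver disease with inflammation and scarring. The 10 members described here, Mup1, Mup3, Mup7, Mup9, Mup11, Mup12, Mup14, Mup15, Mup20 and Mup21, were taken by gene symbol. They are 10 of the 21 Mup symbols and of the 16796 genes listed in at least 1 of the 8 libraries. The members were selected on their measured expression in this same contrast of knockout and wild-type livers, so their levels and fold changes are a description with no test. The other 11 Mup genes are given beside them.

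The knockout group held 4 mice (143, 144, 145 and 179) in which E4bp4 was deleted in the liver (E4bp4-LKO), and the other group held 4 wild-type mice (164, 165, 166 and 167; WT). E4bp4 is the gene listed as Nfil3, which encodes a bZIP transcription factor known mainly as a repressor. Both groups were 2 months old when the NASH diet began and ate it for 20 weeks. The sources used here do not give the promoter that drove the deletion, any allele carried by the WT mice, or the animals' sex, strain and litters. Nfil3 measured 3.33, 6.22, 6.14 and 3.35 CPM in E4bp4-LKO livers, against 11.4, 8.79, 12.1 and 16.5 CPM in WT livers, with no overlap (log2 fold change -1.35, SE 0.25, edgeR adjusted p = 0.0121). CPM, the unit of level used throughout unless FPKM is named, are expected counts scaled to library size with TMM factors (trimmed mean of M values).

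Major urinary proteins are lipocalins, small secreted proteins with a barrel-shaped pocket that binds volatile molecules. The liver releases them into blood, the kidney passes them into urine, and there they carry and slowly release the odours by which mice recognise sex, status and individuals. Their genes lie in a tandem cluster, and male liver makes far more of them than female liver, under the control of pulsatile growth hormone acting through STAT5b, with androgens, thyroid hormone and glucocorticoids.

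The whole cluster lies on chromosome 4, at chr4:59956804-62150863 in the GENCODE M21 annotation of GRCm38, and 20 of the 21 genes are on the minus strand. Mup20 (chr4:62050234-62054158), Mup3 (chr4:62083476-62087342) and Mup21 (chr4:62147932-62150863) are neighbours at one end. The members fall into sequence classes that decide how well reads can be assigned. Mup3, Mup20 and Mup21 are sequence-distinct: the closest other Mup coding sequence was 94.8% identical for Mup3 and Mup21, which are each other's closest, and 91.4% for Mup20, whose closest was Mup18. The other 7 members, Mup1, Mup7, Mup9, Mup11, Mup12, Mup14 and Mup15, are near-identical, each with another Mup coding sequence at 99.2% identity or more. Over all 21 genes, 15 were near-identical and 6 distinct at a threshold of 95% identity, and Mup4, Mup5 and Mup6 were the other distinct genes.

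A stretch of 60 coding bases shows both classes, from the GENCODE M21 transcripts and aligned to Mup11. Capitals mark bases that differ from Mup11.
Mup11: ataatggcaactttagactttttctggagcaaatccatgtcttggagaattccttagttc
Mup1: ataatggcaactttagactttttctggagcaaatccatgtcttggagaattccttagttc
Mup7: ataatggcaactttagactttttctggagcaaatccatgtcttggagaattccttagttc
Mup9: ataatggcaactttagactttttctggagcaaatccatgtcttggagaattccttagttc
Mup12: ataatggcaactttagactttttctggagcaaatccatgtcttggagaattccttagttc
Mup15: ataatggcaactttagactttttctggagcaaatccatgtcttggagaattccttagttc
Mup14: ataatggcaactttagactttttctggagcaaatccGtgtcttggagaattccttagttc
Mup20: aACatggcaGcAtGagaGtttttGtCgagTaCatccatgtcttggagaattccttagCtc
Mup3: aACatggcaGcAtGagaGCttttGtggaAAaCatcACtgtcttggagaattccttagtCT
Mup21: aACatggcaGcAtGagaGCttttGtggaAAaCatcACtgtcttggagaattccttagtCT
In this window Mup11, Mup1, Mup7, Mup9, Mup12 and Mup15 were identical, Mup14 had 1 difference, and Mup20, Mup3 and Mup21 had 11, 15 and 15. A read of this length would fit any of 6 listed genes equally well.

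Over whole transcripts, 96.9% of the 100-base windows of Mup3, 95.5% of those of Mup21 and 61.2% of those of Mup20 occurred in no transcript of any other gene. The same share was 22.5% for Mup12, 18.4% for Mup7, 16.5% for Mup11, 14.9% for Mup9, 11.7% for Mup1, 8.60% for Mup14 and 2.66% for Mup15. The deposited Mup counts were nearly all fractional. Of the 168 values of 21 Mup genes in 8 libraries, 3 were whole numbers within 0.005, among them the 0 of Mup15 in WT 165. In a whole library, 25.9% to 27.3% of entries were fractional. The distinct Mup genes had no whole value either, so fractional counts do not tell the classes apart. With few windows of its own, each near-identical gene has an uncertain level, and the sum over the class is the firmer value.

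Promoters are shown for pairs whose genes were higher in E4bp4-LKO livers: the distinct pair Mup3 and Mup21, and the near-identical pair Mup15 and Mup9. Each line holds the 250 bases before the start site from RefSeq (GRCm38.p6, minus strand). Capitals in the second of a pair mark differences from the first, including end bases with no counterpart in its window. Bases of the first that are missing from the second leave no mark, though they count in the identity below. The windows are chr4:62087318-62087567 for Mup3, chr4:62150842-62151091 for Mup21, chr4:61439705-61439954 for Mup15 and chr4:60421953-60422202 for Mup9.
Mup3: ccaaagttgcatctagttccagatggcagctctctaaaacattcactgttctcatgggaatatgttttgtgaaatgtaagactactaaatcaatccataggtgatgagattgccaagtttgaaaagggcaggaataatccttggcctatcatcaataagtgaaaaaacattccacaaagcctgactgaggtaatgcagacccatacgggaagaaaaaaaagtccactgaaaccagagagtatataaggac
Mup21: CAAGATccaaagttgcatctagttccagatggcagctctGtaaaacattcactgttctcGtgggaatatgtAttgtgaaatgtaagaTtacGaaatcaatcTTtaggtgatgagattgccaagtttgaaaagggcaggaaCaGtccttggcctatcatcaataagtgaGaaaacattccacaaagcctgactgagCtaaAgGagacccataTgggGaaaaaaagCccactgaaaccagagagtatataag
Mup15: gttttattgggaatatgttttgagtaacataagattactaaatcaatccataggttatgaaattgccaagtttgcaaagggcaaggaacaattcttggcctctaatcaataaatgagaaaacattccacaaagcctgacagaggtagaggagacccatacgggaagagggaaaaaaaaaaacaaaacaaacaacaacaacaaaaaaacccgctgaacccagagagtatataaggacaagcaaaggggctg
Mup9: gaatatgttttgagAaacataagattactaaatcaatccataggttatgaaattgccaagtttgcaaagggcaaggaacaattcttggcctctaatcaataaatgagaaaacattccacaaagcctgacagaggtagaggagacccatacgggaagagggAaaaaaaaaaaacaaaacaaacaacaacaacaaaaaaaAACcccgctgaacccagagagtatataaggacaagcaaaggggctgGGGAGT
Over all aligned columns, the promoters were 89.1% identical for Mup21 and Mup3 (256 columns) and 91.9% identical for Mup9 and Mup15 (260 columns). These columns include overhanging ends, because the windows of a pair are offset, so the shared parts were more alike than this. The pairs cannot be ranked by these figures. RefSeq windows, which also hold the 50 bases after the start site, existed for 14 Mup genes, 7 of them members (Mup3, Mup7, Mup9, Mup11, Mup14, Mup15 and Mup21). None of the 14 windows held TTCNNNGAA, the palindrome read by STAT5, or TTANGTAA, the core of the D-box read by E4BP4, on either strand. Over the 32851 windows of all genes, 8.30% held the first and 2.32% the second. These letters describe this window alone.

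The libraries held 23805540 to 32290265 expected counts. Across all genes, 578 passed as higher and 858 as lower in E4bp4-LKO livers among 13244 tested, by edgeR's quasi-likelihood test at an adjusted p under 0.05. WT 164 and WT 165 stood apart: their TMM factors were 1.16 and 1.09, against 0.94 to 1.00 in the other 6 libraries, and without both only 387 genes passed (182 higher and 205 lower). On library totals alone the split was 291 higher and 1660 lower, with the median over all genes at -0.15 (log2), against 0.01 with TMM. The liver label held: Alb, encoding serum albumin, measured 53382 to 68146 CPM in E4bp4-LKO livers, against 43207 to 55064 CPM in WT livers. Mup genes are also expressed in glands, whose markers Krt5 and Prol1 were at most 0.127 CPM in any liver. The glandular marker Amy1, an amylase also made by liver, measured 186 to 270 CPM in E4bp4-LKO livers, against 98.9 to 156 CPM in WT livers, and its part in the Mup levels was not tested. The Y-linked gene Ddx3y measured 56.1 to 70.3 CPM in E4bp4-LKO livers and 51.3 to 60.6 CPM in WT livers, and Uty, Kdm5d and Eif2s3y were likewise expressed in all 8.

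Mup20 encodes darcin, the male pheromone that draws females and makes them learn a male's odour. It was the most abundant Mup transcript of WT liver per length, and of all members the only one that was not higher in E4bp4-LKO livers. It measured 5827, 4898, 3705 and 7646 CPM in E4bp4-LKO livers, against 8813, 8904, 6970 and 5494 CPM in WT livers. The groups overlapped: 2 of the 4 E4bp4-LKO livers (143 and 179) were above the lowest WT liver, 167. The log2 fold change was -0.45 (SE 0.23), and it lay between -0.65 and -0.17 in 19 fits that differed in scaling, filter, tool or libraries, none of which called it.

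Mup3, a distinct lipocalin gene next to Mup20, was higher in every E4bp4-LKO liver. It measured 3551, 4198, 3657 and 3836 CPM in E4bp4-LKO livers, against 843, 1192, 1966 and 1971 CPM in WT livers, a log2 fold change of 1.35 (SE 0.24) or 2.55-fold. The E4bp4-LKO livers lay close together, with the highest 1.18 times the lowest, while the highest WT liver was 2.34 times the lowest. Mup21, its closest relative in sequence, measured 138, 112, 91.1 and 123 CPM in E4bp4-LKO livers, against 48.4, 63.3, 83.6 and 76.1 CPM in WT livers. The groups of Mup21 did not overlap, but the lowest E4bp4-LKO liver, 145, stood just above WT 166 (log2 fold change 0.78, SE 0.17, 1.71-fold).

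All 7 near-identical members were higher in every E4bp4-LKO liver than in any WT liver, with log2 fold changes of 3.89 to 6.03. Mup14 was the most abundant of them and measured 6702, 2537, 2300 and 5727 CPM in E4bp4-LKO livers, against 70.7, 99.6, 384 and 232 CPM in WT livers (log2 fold change 4.46, SE 0.68). E4bp4-LKO 143 and 179 had more than 144 and 145, and WT 164 and 165 had less than 166 and 167. Mup11 measured 2113, 2381, 1288 and 3212 CPM in E4bp4-LKO livers, against 15.6, 24.4, 153 and 193 CPM in WT livers (log2 fold change 4.54, SE 0.93).

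Mup15 had the largest and least certain fold change of the members. It measured 1425, 1007, 732 and 1360 CPM in E4bp4-LKO livers, against 0.682, 0, 34.0 and 34.8 CPM in WT livers. WT 165 listed no Mup15 and was read as 0, and WT 164 was also under 1 CPM. The log2 fold change of 6.03 had an SE of 1.51. Mup7 measured 1933, 510, 765 and 841 CPM in E4bp4-LKO livers, against 10.5, 12.4, 36.8 and 38.9 CPM in WT livers (log2 fold change 5.36, SE 0.68). The high E4bp4-LKO liver of Mup7 was 143, which was also the highest for Mup12, Mup14, Mup15 and Mup21.

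Mup12 measured 563, 207, 264 and 332 CPM in E4bp4-LKO livers, against 4.49, 6.90, 26.7 and 54.2 CPM in WT livers (log2 fold change 3.89, SE 0.86). Mup1, whose protein has been linked to glucose and lipid metabolism in mice, measured 187, 160, 111 and 259 CPM in E4bp4-LKO livers, against 1.88, 5.50, 15.8 and 19.8 CPM in WT livers (log2 fold change 4.07, SE 0.71). Both genes separated the groups widely, and both were lowest in WT 164. Mup9, the least abundant member, measured 22.9, 38.7, 5.80 and 104 CPM in E4bp4-LKO livers, against 0.946, 0.975, 4.75 and 3.07 CPM in WT livers. Its E4bp4-LKO livers differed by 17.9 times among themselves, and the lowest, 145, stood just above WT 166 (log2 fold change 4.16, SE 1.00).

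**Figure D1:**
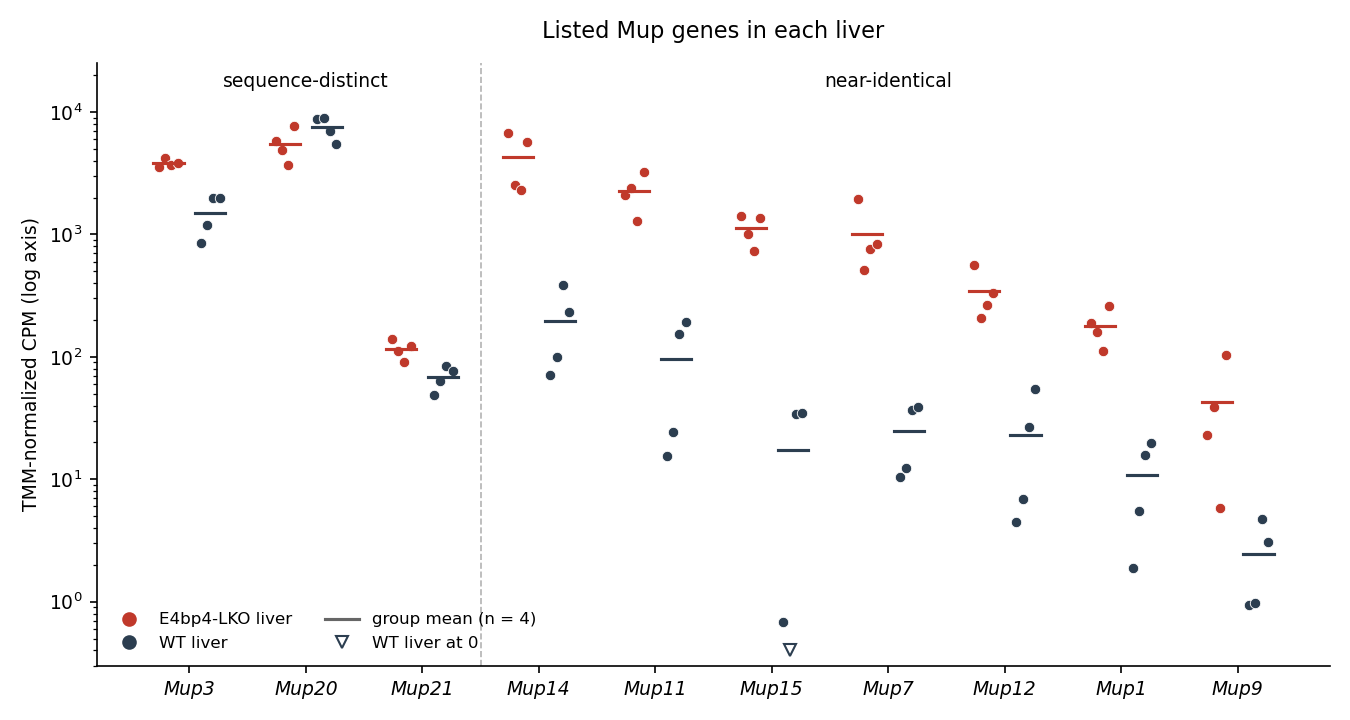
Level of each listed Mup gene in every liver (TMM-normalized CPM, log axis), with E4bp4-LKO livers in red, WT livers in dark blue, and group means as lines (n = 4). The groups overlap for Mup20, and the near-identical genes differ by log2 fold changes of 3.89 to 6.03, against 1.35 for Mup3 and 0.78 for Mup21. The open triangle is WT 165 for Mup15, at 0 and drawn at the foot of the axis.

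In count, 9 of the 10 members passed edgeR's test as higher in E4bp4-LKO livers and none as lower, beside 4.36% of all genes tested that passed as higher, 6.48% as lower and 10.8% either way. Likewise 9 of the 10 had groups that did not overlap, higher in E4bp4-LKO, beside 8.81% of all genes higher and 9.69% lower. The median log2 fold change was 4.12 for the members and 0.01 for all genes tested. Since this contrast chose the members, these counts describe the choice. The count of 9 was 4 without E4bp4-LKO 144, E4bp4-LKO 179 or WT 165, 5 without WT 166, 6 without E4bp4-LKO 143 or WT 164, 7 without WT 167 and 8 without E4bp4-LKO 145. It was 4 without WT 164 and 165 together. Mup3 was called in all 19 fits, and Mup9 and Mup15 in 10 each.

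Of the 11 Mup genes outside the list, 6 passed as higher in E4bp4-LKO livers and none as lower. Beside this, 4.36% of all genes tested passed as higher and 6.48% as lower. The median log2 fold change of the 11 Mup genes was 1.72. The count of 6 was 3 without E4bp4-LKO 144, 4 without E4bp4-LKO 179 or WT 165, 5 without E4bp4-LKO 143, E4bp4-LKO 145, WT 164 or WT 166, and 7 without WT 167. It was 3 without WT 164 and 165 together and 9 by DESeq2. In E4bp4-LKO livers, Mup19 and Mup10 had the highest mean levels of the 21 genes, in CPM and per length, while in WT livers both were below Mup20. Mup19 measured 9169 ± 1427 CPM in E4bp4-LKO livers and 1086 ± 766 CPM in WT livers (SD, n = 4; log2 fold change 3.08, SE 0.51). Mup10 measured 7960 ± 1303 CPM in E4bp4-LKO livers and 2408 ± 1375 CPM in WT livers (log2 fold change 1.72, SE 0.39). No 100-base window of Mup19 was its own, so its level rests on how shared reads were divided. Mup17, Mup16, Mup8 and Mup2 had log2 fold changes of 3.73, 2.48, 2.17 and 1.81. Mup18 overlapped between the groups at 1.04.

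The distinct genes Mup4, Mup5 and Mup6, at the other end of the cluster or within it, were at most 12.6 CPM in any liver. Mup4, known as a lipocalin of the nose, had a log2 fold change of 1.03, Mup6 of 0.94 and Mup5 of 0.90, and none of them passed the test. Mup13 was near 1 CPM in both groups, with 1.14 ± 0.38 CPM in E4bp4-LKO livers and 1.16 ± 0.71 CPM in WT livers (SD, n = 4; log2 fold change -0.04, SE 0.43). Leaving out E4bp4-LKO 145 or 179, or WT 164 or 165, turned its sign to positive, up to 0.31.

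Summing the copies removes the division of reads within a class. The 15 near-identical genes together took 3.21%, 2.87%, 2.15% and 3.35% of expected counts in E4bp4-LKO livers, against 0.249%, 0.333%, 0.824% and 0.776% in WT livers. Entered as 1 gene, their sum had a log2 fold change of 2.52 (SE 0.43), or 5.72-fold, which is smaller than that of any near-identical member alone. The 6 distinct genes together took 0.919%, 0.868%, 0.707% and 1.10% in E4bp4-LKO livers, against 1.12%, 1.10%, 0.905% and 0.744% in WT livers, and the groups overlapped. All 21 genes took 4.13%, 3.73%, 2.85% and 4.44% in E4bp4-LKO livers, against 1.37%, 1.44%, 1.73% and 1.52% in WT livers. In bulk liver, fewer cells of a type and less RNA per cell cannot be told apart.

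The make-up of the family total differed as well. Per length, Mup20 held 13.6%, 12.2%, 12.2% and 16.1% of the summed Mup FPKM in E4bp4-LKO livers, against 74.1%, 67.0%, 40.1% and 35.3% in WT livers (FPKM, which scales counts for transcript length and library size). The near-identical genes held 75.5% to 77.8% in E4bp4-LKO livers, against 18.4% to 51.5% in WT livers. The E4bp4-LKO livers were alike in this make-up, while WT livers spread widely, with WT 164 and 165 at the Mup20 end. The 7 near-identical members held 29.2%, 16.6%, 17.5% and 24.4% in E4bp4-LKO livers, against 0.853%, 1.10%, 3.68% and 3.62% in WT livers. Mup3 held 8.13%, 10.3%, 11.8% and 7.95% in E4bp4-LKO livers, against 6.96%, 8.81%, 11.1% and 12.4% in WT livers, and the groups overlapped in this share.

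**Figure D2:**
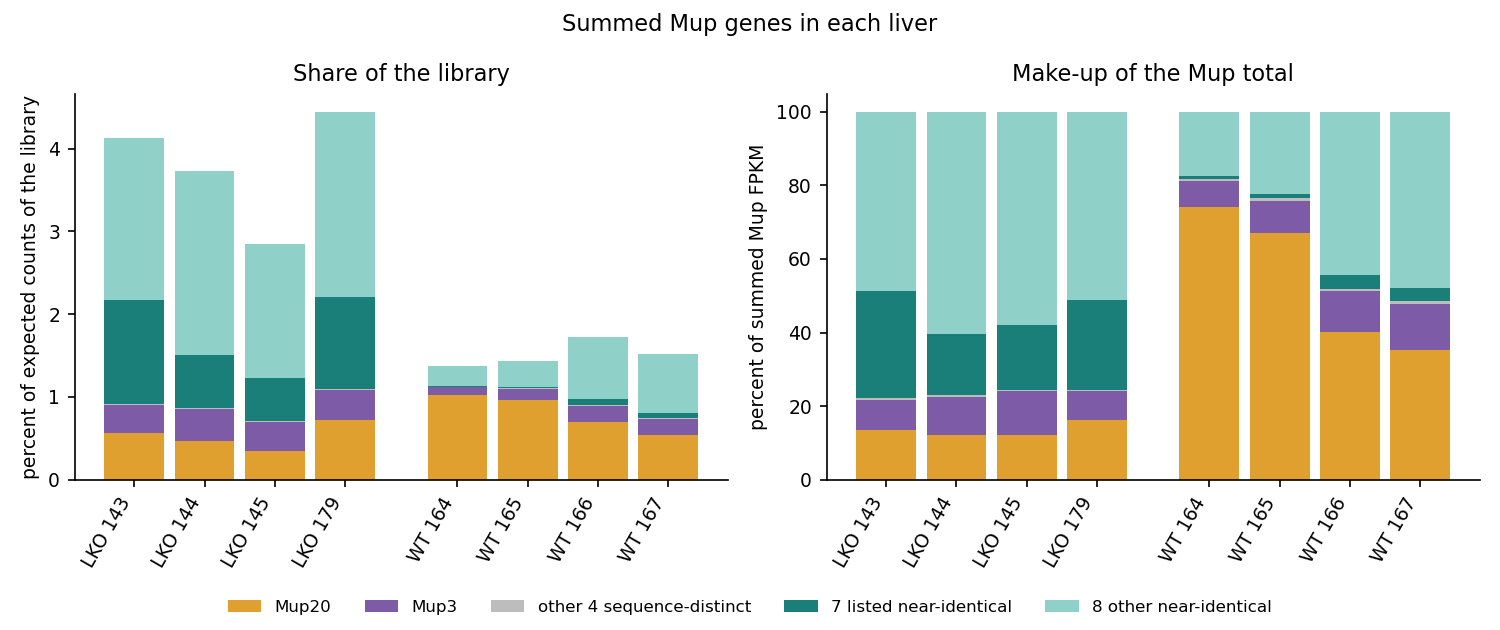
Summed Mup genes in each liver, as percent of all expected counts of the library and as percent of the summed Mup FPKM. The light and dark green near-identical genes take 2.15% to 3.35% of counts in E4bp4-LKO livers, against 0.249% to 0.824% in WT livers, and Mup20 (orange) holds 12.2% to 16.1% of the Mup FPKM in E4bp4-LKO livers, against 35.3% to 74.1% in WT livers.

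Per length, the order of the members in E4bp4-LKO livers was Mup20 (5923 FPKM on average), Mup14 (4520), Mup3 (4014), Mup11 (2349), Mup15 (1234), Mup7 (948), Mup12 (376), Mup1 (212), Mup21 (150) and Mup9 (46.9). Each neighbour in that order overlapped with the next over the 4 livers, except Mup3 with Mup11 and Mup21 with Mup9. In WT livers the order of mean FPKM was Mup20 (9141), Mup3 (1719), Mup14 (221), Mup11 (107), Mup21 (96.7), Mup12 (26.9), Mup7 (24.8), Mup15 (19.9), Mup1 (14.0) and Mup9 (2.88). There Mup20 lay apart from Mup3, Mup3 from Mup14 and Mup21 from Mup12, and the remaining neighbours overlapped. Mup21 stood above 5 near-identical members in WT livers by mean FPKM, but in E4bp4-LKO livers only above Mup9.

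By their median, the Mup genes varied far more among livers of 1 group than other genes did. The median SD of log2 CPM (prior count 2) over the members was 0.53 in E4bp4-LKO livers and 1.13 in WT livers, against 0.16 for all genes tested in either group. Mup3 in E4bp4-LKO livers, with an SD of 0.11, lay below that median of all genes. The WT spread was the larger for 8 of the 10 members, beside 49.7% of all genes. The exceptions were Mup20 and Mup9. WT 164 was the lowest WT liver for 17 of the 21 Mup genes, and for 9 of the 10 members both WT 164 and 165 lay below both WT 166 and 167.

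Mup20 was the member that ran the other way among WT livers, with WT 164 and 165 highest. Against WT 166 and 167 alone, the log2 fold change was smaller for all 7 near-identical members and kept its sign: it was 3.81 for Mup14, 4.75 for Mup7 and 0.96 for Mup3, and -0.17 for Mup20. Some markers of other cells were highest in WT 164, with 363 CPM of the stellate cell collagen Col1a1, 11.1 CPM of the bile duct marker Epcam and 6.18 CPM of Krt19, against 114 to 166, 2.38 to 5.07 and 1.26 to 2.44 CPM in the other WT livers. The stellate marker Lrat was highest in WT 165 (42.9 CPM, against 37.4 CPM in WT 164). The 3 macrophage and the 2 endothelial markers summed to 146 and 72.5 CPM in WT 164, the lowest of the WT livers (147 to 164 and 77.0 to 92.2 CPM in the others). Singly, only Clec4f (66.7 CPM, against 84.5 to 103 CPM) and Stab2 (44.3 CPM, against 49.7 to 63.4 CPM) were lowest there. Ptprc, of the macrophage markers, was highest in WT 164 (31.6 CPM, against 20.6 to 31.2 CPM). Adgre1 (47.6 CPM) and Pecam1 (28.3 CPM) lay within the range of the other WT livers. Between the groups, the 3 stellate cell markers Col1a1, Lrat and Des summed to 87.3 to 140 CPM in E4bp4-LKO livers, against 156 to 410 CPM in WT livers, and 1 of them, Lrat, passed the test (lower, edgeR adjusted p = 0.0362). Col1a1 alone measured 48.9 to 106 CPM in E4bp4-LKO livers, against 114 to 363 CPM in WT livers. It did not pass (edgeR adjusted p = 0.0597), and Lrat and Des overlapped between the groups. The 2 bile duct markers summed to 2.63 to 4.19 CPM in E4bp4-LKO livers, against 4.21 to 17.3 CPM in WT livers. Krt19 and Epcam each overlapped singly, and neither passed (edgeR adjusted p = 0.131 and 0.102). The 5 hepatocyte markers summed to 66511 to 82555 CPM in E4bp4-LKO livers, against 53240 to 68935 CPM in WT livers. That sum was mostly Alb, which overlapped between the groups, as did Ttr and Apoa1. Cps1 lay higher in E4bp4-LKO livers (1935 to 2894 CPM, against 1668 to 1879 CPM). Tat lay lower there (914 to 1064 CPM, against 1077 to 1517 CPM), and none of the 5 passed. The part of these markers in the Mup levels was not tested.

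**Figure D3:**
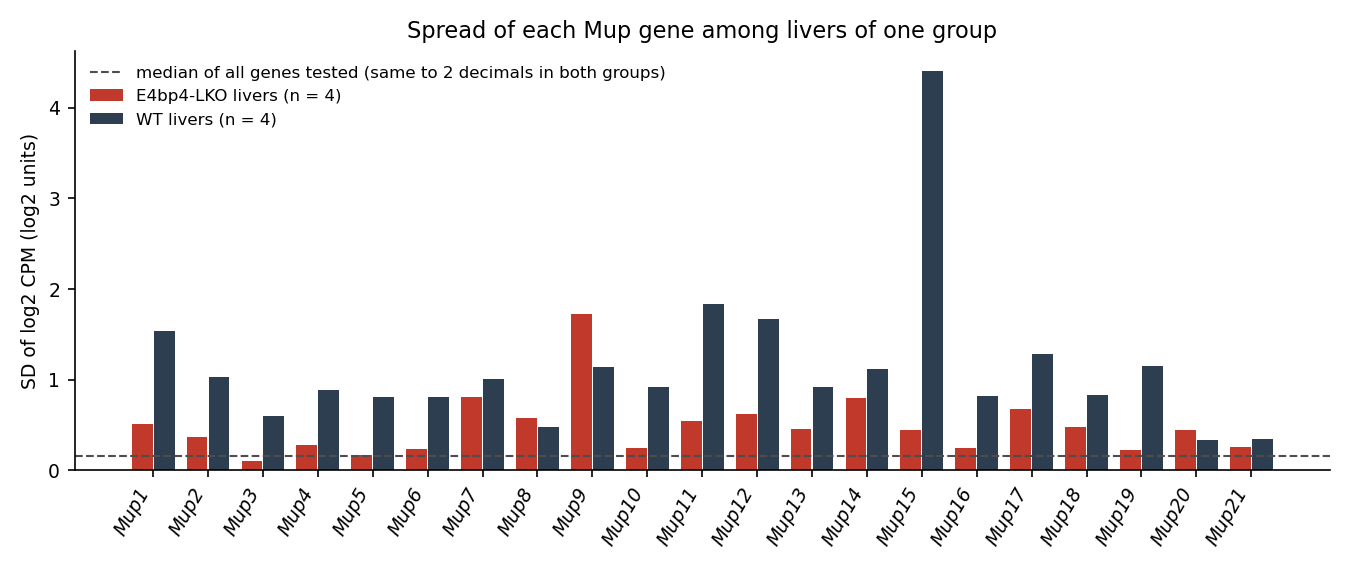
SD of log2 CPM among the 4 livers of each group for the 21 Mup genes, with E4bp4-LKO in red and WT in dark blue. WT bars are the taller for 18 of 21 genes, and the dashed line is the median of all genes tested, 0.16.

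Genes known to be higher in male than in female mouse liver were mostly higher in E4bp4-LKO livers. Of 17 tested genes of a male-biased list, 13 rose in E4bp4-LKO livers, 0 fell and 4 did not pass. Beside this, 4.36% of all genes tested rose and 6.48% fell. The median log2 fold change of the list was 1.34, and 1 gene was too low to test. The list was chosen with earlier results of these data known, so its count is a description. Hsd3b5, a steroid dehydrogenase of male liver, measured 14.3 to 23.5 CPM in E4bp4-LKO livers, against 0.0578 to 0.245 CPM in WT livers (log2 fold change 7.27, SE 0.29, edgeR adjusted p = 7.89e-07). The WT levels of Hsd3b5 lay near 3 counts, so its fold is imprecise. C8a, a chain of complement component 8, rose by a log2 fold change of 0.86 (SE 0.11, edgeR adjusted p = 0.00193).

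Slco1a1, an organic anion transporter, measured 210 to 362 CPM in E4bp4-LKO livers, against 8.04 to 32.4 CPM in WT livers (log2 fold change 4.01, SE 0.44, edgeR adjusted p = 0.00318). Serpina1e, a serine protease inhibitor of the antitrypsin family, rose by a log2 fold change of 3.89 (SE 0.50, edgeR adjusted p = 0.00495). Without WT 164 and 165 together, the 13 genes that rose were 8, and Serpina1e had an edgeR adjusted p = 0.0517.

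Of 15 tested genes of a female-biased list, chosen likewise, 6 fell in E4bp4-LKO livers, beside 6.48% of all genes tested. From the list 0 rose, beside 4.36% of all genes tested. A further 9 did not pass, and 7 more were too low to test. The median log2 fold change was -0.86, with 9 genes below 0 and 6 above. It was -0.39 without WT 164, -0.51 without WT 164 and 165 together, -1.29 over the 7 genes left by a filter at 5 CPM, and -0.07 over all 22 genes with no count filter. Abcd2, a peroxisomal fatty acid transporter, measured 18.3 to 25.7 CPM in E4bp4-LKO livers, against 41.3 to 51.6 CPM in WT livers (log2 fold change -1.02, SE 0.11, edgeR adjusted p = 0.00102). Cyp2a4, a steroid hydroxylase of female liver, measured 1.84 to 6.35 CPM in E4bp4-LKO livers, against 19.6 to 57.7 CPM in WT livers (log2 fold change -3.64, SE 0.49, edgeR adjusted p = 0.00606). Cyp2b13, a cytochrome P450, had at most 0.256 CPM in E4bp4-LKO livers, against 1.41 to 4.42 CPM in WT livers (log2 fold change -4.78, edgeR adjusted p = 0.00472), and -6.37 without E4bp4-LKO 145. The E4bp4-LKO levels of Cyp2b13 lay at or near 3 counts, so its fold is imprecise. Atp6v0d2, a proton pump subunit, fell by 1.69 on the log2 scale (SE 0.31, edgeR adjusted p = 0.0117). The 6 genes were 2 without WT 164 and 165 together, where Cyp2a4 and Atp6v0d2 had edgeR adjusted p = 0.0598 and 0.0813.

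The growth hormone pathway is one through which Mup genes are known to be induced. Of its 14 listed genes, 2 rose and none fell, beside 4.36% of all genes tested that rose and 6.48% that fell. The median log2 fold change of the 14 genes was 0.39 (0.24 on library totals). Ghr, the growth hormone receptor, measured 660 to 699 CPM in E4bp4-LKO livers, against 406 to 550 CPM in WT livers (log2 fold change 0.44, SE 0.11, edgeR adjusted p = 0.0285). Onecut1, a liver transcription factor linked to growth hormone, measured 7.0 to 27.7 CPM in E4bp4-LKO livers, against 4.82 to 6.0 CPM in WT livers (log2 fold change 1.63, SE 0.40, edgeR adjusted p = 0.0366). Stat5b, the transducer of the hormone pulse, had a log2 fold change of 0.05 (SE 0.07), Igf1 of 0.35 (edgeR adjusted p = 0.0616) and Igfals of 0.76 (edgeR adjusted p = 0.0634). Both calls leaned on single livers: Ghr did not pass without E4bp4-LKO 144, 145 or 179 or WT 165 (edgeR adjusted p up to 0.0779), and Onecut1 did not pass without E4bp4-LKO 144 or 179 or any 1 WT liver (up to 0.127). The count of 2 was 0 without E4bp4-LKO 144, E4bp4-LKO 179 or WT 165, 1 without E4bp4-LKO 145, WT 164 or WT 166, and 3 without E4bp4-LKO 143 or WT 167.

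Of 14 tested regulators of Mup or liver gene expression, 2 rose and none fell, beside 4.36% of all genes tested that rose and 6.48% that fell. The median log2 fold change of the regulators was 0.19 (0.04 on library totals), and 1 more (Zfp457) was too low to test. Esr1, the oestrogen receptor alpha, measured 26.8 to 43.6 CPM in E4bp4-LKO livers, against 13.9 to 22.5 CPM in WT livers (log2 fold change 1.01, SE 0.20, edgeR adjusted p = 0.0146), and had an edgeR adjusted p = 0.0865 without WT 164 and 165 together. Zhx3, of the zinc finger and homeobox family to which the Mup regulator Zhx2 belongs, rose by 0.32 on the log2 scale (SE 0.09, edgeR adjusted p = 0.0384), but not on library totals (edgeR adjusted p = 0.299) and not without any 1 liver other than E4bp4-LKO 143 (up to 0.112). Without E4bp4-LKO 143 the count was 3, and without any other 1 liver it was 1. Zhx2 itself had a log2 fold change of 0.09 (SE 0.08). Cebpa and Nr3c1, the glucocorticoid receptor, had log2 fold changes of 0.39 and 0.22 and did not pass (edgeR adjusted p = 0.0665 and 0.0836).

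**Figure D4:**
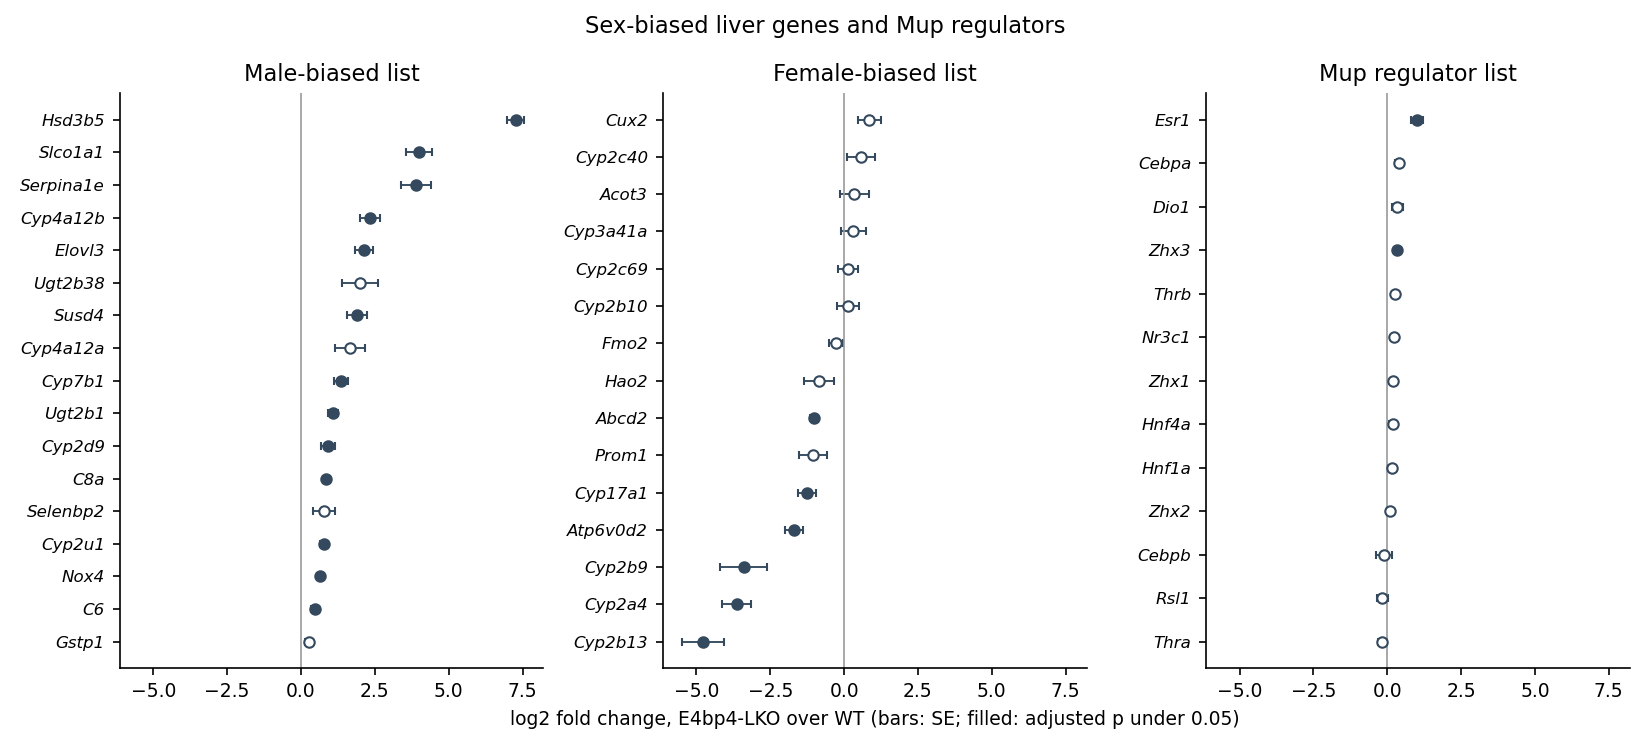
Log2 fold change of E4bp4-LKO over WT, with SE as bars, for tested genes of the male-biased, female-biased and Mup regulator lists, and filled points for an edgeR adjusted p under 0.05. The filled points of the male-biased list lie right of 0 (13 of 17), and those of the female-biased list left of 0 (6 of 15). Of all genes tested, 4.36% passed as higher and 6.48% as lower. The regulators drawn, 13 of the 14 tested, lie between -0.17 and 1.01.

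Lipocalins outside the Mup family differed in direction. Of 9 tested, 1 rose, 2 fell and 6 did not pass, beside 4.36% of all genes tested that rose and 6.48% that fell. The median log2 fold change of these lipocalins was 0.11 (0.07 without E4bp4-LKO 145, and -0.05 on library totals). Lcn2, an iron-scavenging lipocalin of the acute phase, measured 45.3 to 76.4 CPM in E4bp4-LKO livers, against 139 to 273 CPM in WT livers (log2 fold change -1.69, SE 0.23, edgeR adjusted p = 0.0044). Orm2, an acute-phase orosomucoid, fell by 0.95 on the log2 scale (SE 0.15, edgeR adjusted p = 0.00537), with an edgeR adjusted p = 0.058 without WT 164 and 165 together. C8g, the lipocalin chain of complement component 8, rose by 0.37 on the log2 scale (SE 0.10, edgeR adjusted p = 0.0456), but passed neither on library totals (edgeR adjusted p = 0.0677) nor without any 1 of 6 livers, all but E4bp4-LKO 143 and WT 167 (up to 0.129). Rbp4, the plasma carrier of retinol, had a log2 fold change of 0.44 and did not pass (edgeR adjusted p = 0.0674).

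Among 10594 genes outside the family, those whose centred log2 CPM over the 8 livers lay nearest to a Mup profile were named by the root mean square difference, as a description. For Mup3 they were Cyp2c50, Afmid, Ces3b, Slc10a1 and Serpina3k, with differences of 0.08, 0.13, 0.13, 0.19 and 0.20 log2 units. Cyp2c50, a cytochrome P450 and the nearest, averaged 617 ± 77.1 CPM in E4bp4-LKO livers and 242 ± 102 CPM in WT livers (SD, n = 4). For the summed Mup counts they were Nxpe2, Ppp1r1b, Zfp982, Cyp7b1 and Serpina3k, with differences of 0.20 to 0.22. For Mup20 they were March1, Gimd1, Cbr1, Prim1 and Zfp53, with differences of 0.13 to 0.18, and Cbr1, a carbonyl reductase, averaged 73.4 ± 15.7 CPM in E4bp4-LKO livers and 100.4 ± 13.9 CPM in WT livers (SD, n = 4). The Mup20 profile itself had a root mean square of 0.41 log2 units, against 0.81 for Mup3 and 0.77 for the summed counts. A given difference is thus a weaker match for Mup20 than for the other profiles.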

How the data were processed

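Whole-liver RNA was sequenced from 4 E4bp4-LKO and 4 WT mice. Per the file headers, each deposited library lists an expected count and an FPKM value per gene. The expected counts are the authors' estimates, fractional where reads were shared, and the deposited FPKM are scaled by length and library. The submitters' processing notes name HISAT2; the sources used here give neither its version nor the quantifier, build, annotation or strand (not given in the sources used here). A gene missing from a library was read as 0. By accession, 26 unnamed isoform entries were merged into their genes.

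Expected counts were rounded and fitted in R 4.3.3 with edgeR 4.0.16 (filterByExpr, minimum count 10, minimum total 15; TMM; robust glmQLFit and glmQLFTest, two-sided), with Benjamini-Hochberg adjustment over all 13244 genes tested and a threshold of 0.05. Fold changes are E4bp4-LKO over WT, and the SE is derived from the F statistic. Alternatives were DESeq2 1.42.0, its size factors, other filters, library totals, Mup genes left out of the scaling, limma 3.58.1 on log2(FPKM + 1) or log2(FPKM + 0.1), and each mouse left out; leaving out WT 164 and 165 together was added after seeing the data. In counts simulated from the means and library sizes of this comparison (13164 genes), edgeR recovered 62.7%, 95.5% and 100% of genes changed 1.5-, 2- and 4-fold, with 9 false calls. The simulation gave every gene the typical dispersion for its level. The members spread more widely: their median SD of log2 CPM was 0.53 in E4bp4-LKO and 1.13 in WT livers, against 0.16 for all genes tested. The recovery rates therefore do not apply to Mup genes.

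Libraries held 23805540 to 32290265 counts, so a floor of 3 counts is 0.0929 to 0.126 CPM; it covers counting error only, as PCR copies of a molecule cannot be recognised here. The labels name separate mice as replicates.

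Members and lists were chosen with earlier results of these data known. Named were all Mup genes, Nfil3, up to 4 genes of smallest p per list, and the 5 nearest profiles (mean FPKM of 1 or more, no predicted gene models) to the Mup sum, Mup3 and Mup20. Of the regulators, 1, which did not pass, is counted but not reported here. Further genes of a list, the markers and the Y-linked genes are named as such. Sequence classes were planned on proteins; with no protein table used here, coding identity of GENCODE M21 transcripts (95% threshold) took its place.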

Additional observations from a re-analysis of the deposited data

Results flagged for a closer look

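Of 86 groups of 4 livers examined, 4 held a liver whose gap to the nearest other, over the range of the group, passed Dixon's 95% critical value; chance gives about 1 in 20 groups. Mup5 in E4bp4-LKO livers was lowest in mouse 145, at 7.07 CPM, while the other 3 lay at 8.93 to 9.01. C8a was highest in E4bp4-LKO 179, at 707 CPM, against 626 to 638 in the other E4bp4-LKO livers. Serpina1e was also highest in E4bp4-LKO 179, at 1836 CPM, against 894 to 1010. Igfals was lowest in E4bp4-LKO 143, at 67.9 CPM, against 104 to 111.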

How the results depend on the processing

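The Mup summed share kept its direction throughout: its mean log2 value was 1.31 higher in E4bp4-LKO than in WT livers, and 1.23 to 1.44 higher without 1 mouse. Leave-one-out counts ran from 506 to 1539 for all genes (1436 in the main comparison), 4 to 8 for the members (9), 11 to 13 for the male-biased list (13), 4 to 5 for the female-biased list (6), 0 to 3 for the growth hormone list (2), 1 to 3 for the Mup regulators (2) and 2 to 4 for the lipocalins (3). Without WT 164 and 165 these counts were 387, 4, 8, 2, 0, 0 and 1. DESeq2 called 2238 genes (971 higher and 1267 lower), with 4 growth hormone genes, 4 regulators and 6 lipocalins. The growth hormone count was 1 without the count filter and 5 by limma on FPKM at either pseudocount. The regulator count was 1 on library totals and 1 by limma on FPKM at either pseudocount or unfiltered. The scaling moved the median of all genes to -0.15 on library totals and to -0.11 and -0.13 on filtered FPKM, where 261 genes were higher and 1423 or 1449 lower. Mup13 turned to 0.12 and 0.02 without E4bp4-LKO 145 and 179, to 0.15 and 0.31 without WT 164 and 165, to 1.03 without both WT livers, and stood at -0.30 without WT 166; the cause was not tested. No member changed sign under any of these alternatives. No value of the members' count exists with near-identical copies summed, nor of the summed share under count filters or FPKM pseudocounts. No paired analysis was possible because the mouse numbers do not recur between the groups. Mup15 was at 0 in WT 165, where 3 counts are 0.0993 CPM, and no 50-base window of the Mup15 transcript was its own. The part of depth and of the division of shared reads in this 0 was not tested. The SE of Mup15, 1.51, and that of Mup9, 1.00, were the largest of the members.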
